A study of Mus musculus with 6 samples.

Results

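The myosin heavy chain genes that set muscle fibre type were examined by ATAC-seq. The assay reads out where a transposase can reach the DNA and insert sequencing adapters. The members were chosen by gene symbol and by position. Of 49366 genes with a deposited start-site window, 9 were taken: Myh1, Myh2, Myh3, Myh4, Myh6, Myh7, Myh7b, Myh8 and Myh13. Of 36097 deposited peaks, 13 were taken. They lie on chromosome 11 between 67052030 and 67296390 (GRCm38), in an interval of 320 kb that holds the myosin gene cluster.

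Nuclei came from the Gastroc and TA muscles of male C57BL/6J mice injected at 8 weeks of age with AAV6:Yap-shRNA in one limb and AAV6:LacZ-shRNA, the control vector, in the other, and collected 28 days later. A short hairpin RNA (shRNA) lowers the RNA it is directed against, and Yap is a coactivator of the Hippo pathway that binds DNA through TEAD factors. Each library was made from nuclei sorted as positive for PCM1, a protein that surrounds the nuclei of muscle fibres, after 4 Gastroc and 4 TA muscles were pooled. There were 3 LacZ-shRNA and 3 Yap-shRNA replicates, and both groups carried an AAV6 vector and an shRNA. The vectors are not stated to act in fibres alone, and the sort selects fibre nuclei. Because the vectors were given to contralateral limbs, the groups may share mice, but the labels do not tie replicates to animals. Accessibility does not measure how far Yap RNA was lowered, so the knockdown is not checked here. Soleus, a muscle rich in slow fibres, was not sampled here.

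Myosin heavy chain is the motor protein of the thick filament, and the gene a fibre expresses sets how fast it shortens. Adult fast fibres of the mouse use Myh2 (type IIa), Myh1 (type IIx) or Myh4 (type IIb), while slow fibres use Myh7. Myh3 and Myh8 encode the embryonic and perinatal forms, Myh13 an extraocular form, Myh6 the alpha form of the heart and Myh7b an ancient form found in slow muscle and heart. The fast and developmental genes lie side by side on chromosome 11 and are known to draw on shared enhancers upstream of Myh2, while Myh6 and Myh7 are neighbours on chromosome 14 and Myh7b is alone on chromosome 2. Gastroc and TA are fast muscles in which type IIb fibres abound.

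Peak counts totalled 2588520 to 6871176 per library and window counts 3326803 to 10319467, and LacZ-shRNA replicates 1 and 2 were the shallowest in both tables. Levels are given as CPM, that is, counts scaled to library size with TMM factors, and, between genes or peaks, as CPM per kb of length. A window joins 1 kb to each side of every annotated start of a gene. The median window held 4.45 CPM per kb. Markers of fibres and of other cells were compared. All 8 fibre markers (Ckm, Acta1 and others) lay above the median window, with a median of 23.8 CPM per kb, and the 5 fast fibre markers had a median of 35.9, against 7.68 for the 5 slow fibre markers. The medians were 3.63 for fibroblast, 4.97 for leukocyte (6 of 7 genes with a window), 5.79 for endothelial, 5.81 for smooth muscle and pericyte, and 6.44 for satellite cell markers. The series description speaks of cardiomyocytes, but every sample is labelled skeletal muscle, and cardiomyocyte markers had a median of 6.39. Above the median window were also 1 of 6 fibroblast, 4 of 6 leukocyte, 4 of 5 endothelial and 3 of 4 smooth muscle and pericyte markers. So were 2 of 3 satellite cell markers, all 5 slow fibre markers and all 5 cardiomyocyte markers.

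The cluster runs from Myh3 through Myh2, Myh1, Myh4 and Myh8 to Myh13, all read in the same direction. Its 13 peaks, called P1 to P13 in that order, lie mainly in 2 places. Between the end of Myh3 and the start of Myh2, a span of 68.7 kb without a myosin exon, there are 6 peaks (P2 to P7), and around Myh1 and Myh4 there are 4 (P8 to P11). The spans between Myh2 and Myh1 and between Myh8 and Myh13 hold 0. P1 is the shared promoter of Sco1 and Adprm, housekeeping genes outside the cluster. The interval holds 40.6 peaks per Mb, against 13.2 over the genome, and 378 of 8507 intervals of the same length (4.44%) hold 13 or more peaks. The median width of the 13 is 2208 bp, against 902 bp for all peaks.

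**Figure D1:**
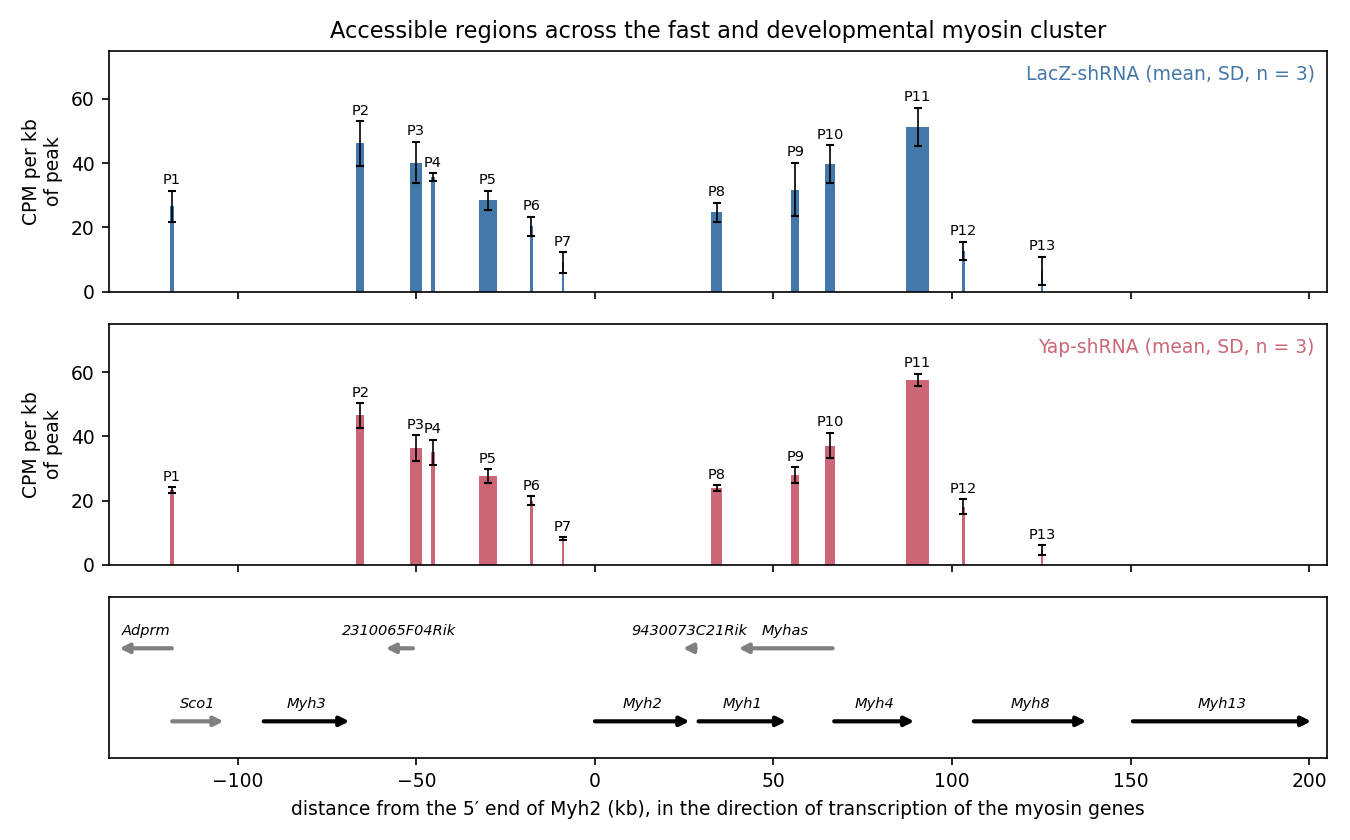
Mean level of the 13 cluster peaks (CPM per kb of peak, vertical axis; error bars SD, n = 3) in LacZ-shRNA (upper panel) and Yap-shRNA (middle panel), drawn at true width against distance from the 5′ end of Myh2 in kb, with genes as arrows in their direction of transcription (myosin genes black, others grey). P2 to P7 lie in the interval between Myh3 and Myh2, P11 at the end of Myh4 is the highest in both groups, and no peak stands at the starts of Myh3, Myh2, Myh1, Myh8 or Myh13.

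Of the adult fast genes, Myh4 had the highest window level per kb. Its window (ENSMUSG00000057003, chromosome 11, 2 annotated starts) held 49.2, 68.9 and 68.7 CPM with LacZ-shRNA (replicates 1 to 3) and 58.3, 55.3 and 57.5 CPM with Yap-shRNA. The Yap-shRNA values lay between the lowest and the other LacZ-shRNA values, so the groups overlapped. The log2 fold change of Yap-shRNA over LacZ-shRNA was -0.12 (SE 0.14, 95% interval -0.41 to 0.16, edgeR adjusted p 0.959). It ran from -0.27 without LacZ-shRNA replicate 1 (edgeR unadjusted p 0.0119 and adjusted p 0.489) to -0.030 without LacZ-shRNA replicate 3. Per kb, the window held 14.9 ± 1.94 CPM (SD over 6 libraries), which is the 97.3rd percentile of all windows.

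The start of Myh4 is the one member start that lies in a peak. P10 (chromosome 11, 67235524 to 67238287) covers it together with the first exon of Myhas, an antisense RNA read from the same promoter region toward Myh1. P10 held 91.5, 123 and 114 CPM with LacZ-shRNA and 114, 101 and 92.8 CPM with Yap-shRNA. The groups overlapped, and the change was -0.090 on the log2 scale (SE 0.13, edgeR adjusted p 0.927). Reads where the windows of 2 genes overlap were largely left out of both windows by the authors' counting. Where a peak lies wholly in 1 gene's window, the window held at least 0.95 of the peak's count in 99.99% of 7041 cases, against 38.3% of 2390 cases where it lies in a shared part. The part of P10 in the Myh4 window is shared with Myhas, so the Myh4 window value largely leaves it out. The window is 4.002 kb long, so the stretches around its 2 starts do not overlap. The second start lies inside the gene, and the window value holds signal from there as well as from beside the peak. Over the 2.457 kb that are not shared, the Myh4 window held 24.3 ± 3.16 CPM per kb (SD over 6 libraries). Most of this length lies around the second start, and the measure was chosen after seeing the data.

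Myh2 and Myh1, the type IIa and IIx genes, had whole-window levels near that of the typical window. The Myh2 window held 13.7, 8.33 and 11.96 CPM with LacZ-shRNA and 12.9, 11.6 and 10.9 CPM with Yap-shRNA, and the Myh1 window 7.60, 13.5 and 9.11 CPM with LacZ-shRNA and 9.17, 8.29 and 10.2 CPM with Yap-shRNA. For both genes the Yap-shRNA values fell inside the LacZ-shRNA range. The log2 fold changes were 0.017 (SE 0.19) for Myh2 and -0.068 (SE 0.21) for Myh1, with edgeR adjusted p-values of 0.995 and 0.986. Per kb they stood at 5.28 and 4.10 CPM, which is within the range of windows that overlap no peak (median 4.14, 95th percentile 7.91, 36366 windows). Of the 2.353 kb of the Myh1 window, 1.17 kb are not shared with the window of 9430073C21Rik, a gene on the opposite strand, and per unshared kb Myh1 held 8.24 CPM, where the 95th percentile of windows without a peak on the same measure was 8.38.

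The promoters of these genes are shown because their windows differ in level within one family. Those of Myh4 and Myh1 lie in window parts shared with another gene, so the window levels largely leave these promoters out. They are the RefSeq promoters (GRCm38.p6) from 250 bases before to 50 bases after the annotated start, written in the direction of transcription, with Myh8, the perinatal gene, beside them. All 9 members had a RefSeq promoter, and the RefSeq start of Myh4 (67237812) lies before the 5′ end in the window annotation (67238029). That of Myh13 (67327103) lies inside the gene, well past its 5′ end (67321658). Those of Myh1, Myh6, Myh7b and a Myh7 promoter also lie inside, by shorter distances. Capitals mark matches to CAGCTG, the E-box that myogenic factors bind, to CATTCC on either strand, the core of the TEAD site, to the MEF2 site and to the CArG box of serum response factor. No 2 matches overlapped in these promoters or in the cluster peaks.
Myh4 promoter, chr11:67237562-67237861: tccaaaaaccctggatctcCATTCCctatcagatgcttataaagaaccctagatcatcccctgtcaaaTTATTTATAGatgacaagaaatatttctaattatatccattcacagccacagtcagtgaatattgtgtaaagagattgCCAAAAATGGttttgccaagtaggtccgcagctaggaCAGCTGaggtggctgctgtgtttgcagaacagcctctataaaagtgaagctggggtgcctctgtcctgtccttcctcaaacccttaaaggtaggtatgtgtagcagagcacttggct
Myh1 promoter, chr11:67199852-67200151: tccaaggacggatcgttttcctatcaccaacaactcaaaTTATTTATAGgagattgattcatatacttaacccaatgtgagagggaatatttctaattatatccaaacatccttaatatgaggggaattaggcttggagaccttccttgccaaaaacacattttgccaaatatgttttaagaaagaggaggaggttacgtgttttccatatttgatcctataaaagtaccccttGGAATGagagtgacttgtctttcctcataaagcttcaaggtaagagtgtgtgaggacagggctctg
Myh2 promoter, chr11:67170777-67171076: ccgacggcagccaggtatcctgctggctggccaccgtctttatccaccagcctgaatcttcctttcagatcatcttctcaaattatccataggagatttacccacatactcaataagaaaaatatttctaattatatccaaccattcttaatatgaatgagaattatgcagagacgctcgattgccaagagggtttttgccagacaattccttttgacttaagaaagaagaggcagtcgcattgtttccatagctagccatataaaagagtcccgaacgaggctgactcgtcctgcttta
Myh8 promoter, chr11:67276874-67277173: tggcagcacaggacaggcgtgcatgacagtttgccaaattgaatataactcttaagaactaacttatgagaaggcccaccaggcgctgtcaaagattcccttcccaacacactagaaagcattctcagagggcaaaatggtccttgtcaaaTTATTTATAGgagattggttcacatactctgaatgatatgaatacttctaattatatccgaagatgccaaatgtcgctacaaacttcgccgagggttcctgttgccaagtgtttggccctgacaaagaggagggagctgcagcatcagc

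The Myh4 promoter held a match to each of the 4 motifs, and it was the one member promoter that did. Of 32851 RefSeq promoters, 16.3% held the E-box, 14.7% the TEAD core, 3.19% a MEF2 site and 1.63% a CArG box. Myh1 held the MEF2 site and, at position -16, the TEAD core on the opposite strand. Myh2, Myh3 and Myh7b held no match to any of the 4. Myh6 and 1 of the 2 Myh7 promoters held the TEAD core on the opposite strand, and Myh13 a CArG box. The MEF2 match TTATTTATAG was the same in Myh1, Myh4 and Myh8 and stood in 38 of the 32851 promoters (0.116%). The closest 10 bases in Myh2 differ from it by T5C and T6C, counted from 1 at the first base of the match, with the base of the match first.

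A stretch of 20 bases, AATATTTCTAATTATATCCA, was common to the promoters of the adult fast genes, Myh1, Myh2 and Myh4, and stood in 3 of 32851 promoters, those of these genes. It began at positions -165, -130 and -163 from their RefSeq starts. The 14 bases TTCTAATTATATCC at its core were also in Myh8, from position -54, and in no other promoter of the table (4 of 32851). The 3 adult fast genes thus share this stretch while their window levels differ. In Myh1 and Myh4 the stretch lies in a window part shared with another gene, so the window levels largely leave it out. A match is a string of letters and does not show that a factor is bound.

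Myh8 (ENSMUSG00000055775) was the member window with the smallest p-value. It held 17.9, 30.8 and 21.6 CPM with LacZ-shRNA and 30.5, 25.0 and 30.8 CPM with Yap-shRNA. LacZ-shRNA replicates 1 and 3 were below all other libraries, and LacZ-shRNA replicate 2 was level with the higher Yap-shRNA values, so the groups overlapped. Its change was 0.34 on the log2 scale (SE 0.16, 95% interval 0.012 to 0.67, edgeR unadjusted p 0.0427 and adjusted p 0.946). It was thus not past the threshold of 0.05 on the adjusted p. Over the alternatives run, which included leaving out each library, its log2 fold change ran from 0.20 (without LacZ-shRNA replicate 1) to 0.53 (without LacZ-shRNA replicate 2) and its adjusted p from 0.396 to 0.9999.

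P12 (chromosome 11, 67273759 to 67274690), which lies 2434 bp before the start of Myh8 and overlaps no annotated gene, had the smallest p-value of the cluster peaks. It held 10.7, 14.9 and 10.02 CPM with LacZ-shRNA and 17.99, 14.5 and 18.4 CPM with Yap-shRNA. As in the Myh8 window, LacZ-shRNA replicates 1 and 3 were lowest, while replicate 2 lay above the lowest Yap-shRNA value. P12 had a log2 fold change of 0.57 (SE 0.20, 95% interval 0.18 to 0.97, edgeR unadjusted p 0.00526 and adjusted p 0.251). The peak is a weak one, with counts of 35 to 125 per library, and 15.4 ± 3.77 CPM per kb (SD over 6 libraries) place it at the 34.4th percentile of all peaks. With library size alone in place of TMM the log2 fold change was 0.71 and the adjusted p 0.0665, the lowest of any alternative, in a fit where the median of all peaks moved to 0.14. The 300 bases at the centre of the peak hold no match to the 4 motifs.
P12 centre, chr11:67274074-67274373: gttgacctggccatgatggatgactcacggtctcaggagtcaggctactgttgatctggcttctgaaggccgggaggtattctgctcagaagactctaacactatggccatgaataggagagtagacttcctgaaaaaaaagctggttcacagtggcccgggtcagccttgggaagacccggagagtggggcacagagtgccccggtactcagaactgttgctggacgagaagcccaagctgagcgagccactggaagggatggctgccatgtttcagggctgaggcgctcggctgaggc

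The other developmental gene, Myh3, held 15.2, 16.02 and 12.99 CPM with LacZ-shRNA and 15.1, 13.2 and 15.4 CPM with Yap-shRNA. These values lay in the same range in both groups (log2 fold change 0.0059, SE 0.17, edgeR adjusted p 0.998). At 7.32 CPM per kb the embryonic gene stood higher than Myh2 (5.28) and, over the whole window but not per unshared kb, higher than Myh1, although its nearest peak by its start is 25129 bp away. Myh13 held 21.9, 38.8 and 22.6 CPM with LacZ-shRNA and 35.1, 28.6 and 30.1 CPM with Yap-shRNA. LacZ-shRNA replicate 2 was the highest library and the other LacZ-shRNA replicates the lowest (log2 fold change 0.23, SE 0.16, edgeR adjusted p 0.949). Leaving out 1 library moved this value to between 0.099 (without LacZ-shRNA replicate 3) and 0.49 (without LacZ-shRNA replicate 2, edgeR unadjusted p 0.00278 and adjusted p 0.420).

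The slow and cardiac genes lie outside the cluster, and no peak overlapped their windows. Myh6 was the one member whose groups did not overlap, with 36.0, 42.0 and 41.2 CPM with LacZ-shRNA and 46.8, 51.2 and 43.0 CPM with Yap-shRNA. The lowest Yap-shRNA value was within 1 SD of the highest LacZ-shRNA value, where the SD of LacZ-shRNA was 3.26 CPM. On the log2 scale the difference was 0.25 (SE 0.14, 95% interval -0.029 to 0.52, edgeR adjusted p 0.946). Groups that do not overlap were seen in 10.1% of all windows, so 1 of 9 members is near the background.

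Myh7, the slow fibre gene, held 34.0, 47.7 and 38.6 CPM with LacZ-shRNA and 38.5, 41.1 and 45.4 CPM with Yap-shRNA. Its groups overlapped (log2 fold change 0.073, SE 0.14, 95% interval -0.21 to 0.36, edgeR adjusted p 0.980). Myh7b held 38.7, 64.1 and 53.2 CPM with LacZ-shRNA and 57.2, 58.1 and 64.2 CPM with Yap-shRNA, and LacZ-shRNA replicate 2 was level with the highest Yap-shRNA library (log2 fold change 0.22, SE 0.15, edgeR adjusted p 0.949). The Myh7b value ran from 0.054 without LacZ-shRNA replicate 1 to 0.37 without LacZ-shRNA replicate 2 (edgeR unadjusted p 0.0194 and adjusted p 0.499). The windows of Myh6, Myh7 and Myh7b join 7, 6 and 3 annotated starts over 6.638, 6.938 and 6.003 kb, so they cover more than the promoter. The nearest peaks lay 40117, 19888 and 17795 bp from their 5′ ends.

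These genes carry microRNAs in their introns, miR-208a in Myh6, miR-208b in Myh7 and miR-499 in Myh7b, a family known to favour the slow programme. The mature RefSeq sequences are shown with the seed (bases 2 to 8) in capitals because the seed is what unites a family that is spread over 3 host genes.
mmu-miR-208a-3p, chr14:54949072-54949093: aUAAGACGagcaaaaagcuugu
mmu-miR-208b-3p, chr14:54975710-54975731: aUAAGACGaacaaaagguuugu
mmu-miR-499-5p, chr2:155622893-155622913: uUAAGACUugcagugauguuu

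miR-208a and miR-208b had the same 7 seed bases, and miR-499 shared 6 of the 7. Their windows held 14.8 and 16.2 CPM for Mir208a (LacZ-shRNA and Yap-shRNA means), 8.43 and 10.2 for Mir208b and 18.1 and 19.4 for Mir499. The log2 fold changes of 0.14, 0.27 and 0.16 (SE 0.17, 0.20 and 0.19) had the sign of their host genes, and each of the 3 had an edgeR adjusted p of at least 0.949. Mhrt, an RNA that starts between Myh6 and Myh7 and is read into Myh7 on the opposite strand, had a log2 fold change of -0.041 (SE 0.17).

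Ranked per kb over the 6 libraries, Myh4 came first at 14.9, followed by Myh7b (9.32), Myh3 (7.32), Myh6 (6.53), Myh8 (6.08), Myh7 (5.89), Myh2 (5.28), Myh13 (4.82) and Myh1 (4.10 CPM per kb). Myh4 lay above Myh7b in 6 of 6 libraries, and their ranges did not overlap. All other neighbours in this order overlapped in range. Myh4 and Myh7b alone exceeded the 95th percentile of windows that overlap no peak (7.91). Per unshared kb, Myh4 (24.3) and Myh7b (9.32) likewise exceeded the 95th percentile on that measure (8.38), and Myh1 moved from the last place in the order to the place after Myh7b, at 8.24 CPM per kb and with a range that overlapped that of Myh7b.

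**Figure D2:**
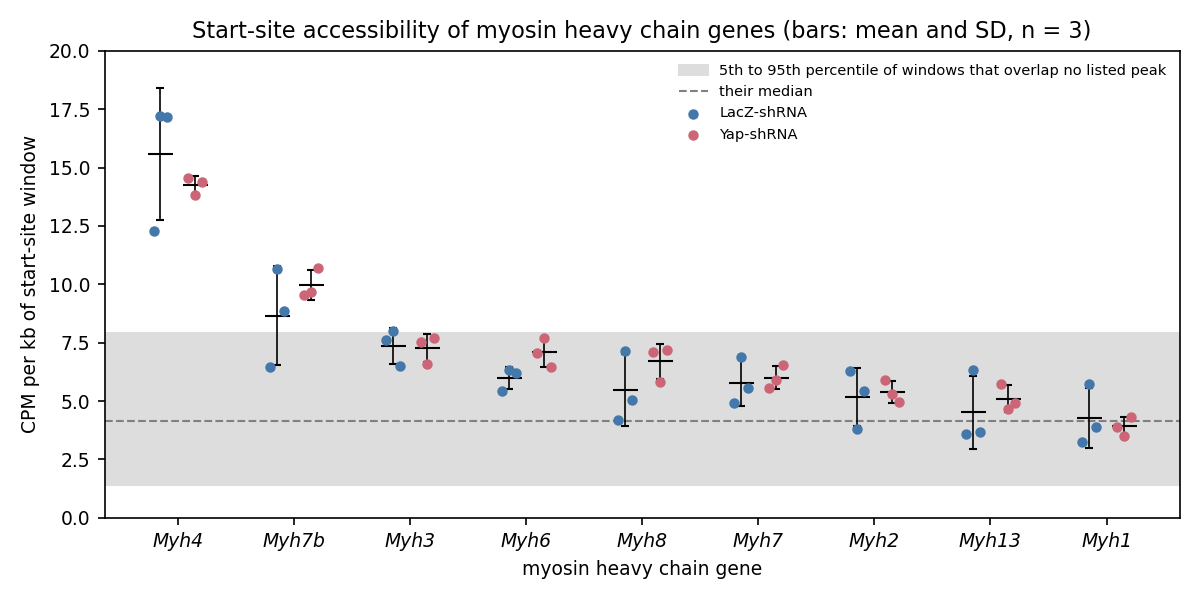
Level of each member window (CPM per kb of window) in the 3 LacZ-shRNA (blue) and 3 Yap-shRNA (red) libraries, with horizontal marks for the mean and bars for the SD; the grey band is the 5th to 95th percentile of the 36366 windows that overlap no listed peak and the dashed line their median of 4.14. Myh4 lies between 12.3 and 17.2, above every other member, and 7 of the 9 means per gene lie inside the band.

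A window without a listed peak is not shown to be closed. Of the 494 windows in the top 1% by CPM per kb, 53 overlapped no listed peak (10.7%), among them Tnni2, Tnnt3, Atp2a1 and Mybpc2, which encode fast fibre proteins. The authors numbered their peaks, and the numbers run without a gap from the last peak before the cluster interval (chromosome 11, 67024673 to 67025599) through the 13 to the first peak after it (67559538 to 67560132), so no numbered row of the interval is missing. Of the 8 member windows without a peak, Myh7b alone had a level above the 95th percentile of such windows.

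P11 was the most accessible region of the cluster. It spans 6477 bp from inside the 3′ end of Myh4, over the last exon, to beyond the gene (chromosome 11, 67258140 to 67264616), and of all peaks 29 were wider and 58 held more CPM. It held 287, 349 and 359 CPM with LacZ-shRNA and 384, 359 and 376 CPM with Yap-shRNA. The lowest Yap-shRNA library (358.95 CPM) was level with the highest LacZ-shRNA library (358.84 CPM), so that the groups did not overlap by this margin alone. The log2 fold change was 0.17 (SE 0.16, 95% interval -0.16 to 0.49, edgeR adjusted p 0.856). Groups that do not overlap were seen in 13.3% of all peaks, against this 1 of 13.

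P11 took 29.0 to 32.2% of the cluster's peak counts with LacZ-shRNA and 33.1 to 34.7% with Yap-shRNA. P12 took 0.90 to 1.23% and 1.38 to 1.69%, and the ranges of the other peaks overlapped between groups. Shares of a whole depend on each other, and their differences were not tested. Per kb P11 held 54.4 ± 5.31 CPM (SD over 6 libraries), and the next in order were P2 (46.3), P10 (38.4), P3 (38.2) and P4 (35.3 CPM per kb). Every neighbouring pair in the order of the 13 peaks overlapped in range, although P11 lay above P2 in 6 of 6 libraries.

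The interval between Myh3 and Myh2 held 38.9 to 43.5% of the cluster's peak counts. P2 begins 1877 bp past the end of Myh3 (chromosome 11, 67104168 to 67106474) and held 106 ± 16.1 CPM with LacZ-shRNA and 107 ± 8.79 with Yap-shRNA (mean ± SD, n = 3 libraries each). P3 (67119150 to 67122562) covers the start of 2310065F04Rik, a long noncoding RNA read away from Myh2. P3 held 117, 161 and 133 CPM with LacZ-shRNA and 139, 112 and 121 CPM with Yap-shRNA, with overlapping groups (log2 fold change -0.14, SE 0.14, edgeR adjusted p 0.862). The start-site window of that RNA changed by -0.20 on the log2 scale (SE 0.15, edgeR adjusted p 0.949). P4 (67125080 to 67126366) held 45.9 ± 1.60 CPM with LacZ-shRNA and 45.1 ± 5.06 with Yap-shRNA (mean ± SD, n = 3 libraries each).

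P5, a region of 5102 bp that lies 27445 bp before Myh2, was wider than all but 101 peaks. It held 145 ± 15.1 CPM with LacZ-shRNA and 141 ± 11.5 with Yap-shRNA (mean ± SD, n = 3 libraries each; log2 fold change -0.038, SE 0.14, edgeR adjusted p 0.976). P6 and P7, which lie closest to Myh2, were weaker, at 16.3 and 6.00 CPM with LacZ-shRNA and 15.9 and 5.42 CPM with Yap-shRNA. Going from P2 toward Myh2, the level per kb was 46.3, 38.2, 35.3, 28.1, 20.2 and 8.62 CPM. The means of these 6 peaks thus stood in falling order toward the Myh2 start. P2 lay above P3 in 5 of 6 libraries and P3 above P4 in 4 of 6, with ranges that overlapped. From P4 on each lay above the next in 6 of 6 libraries with no overlap in range.

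Because Yap acts through TEAD factors, the TEAD core was counted in the cluster peaks. The 13 peaks (30.704 kb) held 28 matches, or 0.91 per kb, against 0.45 per kb in all peaks. P5 held 7, P10 at the Myh4 start 5, P3 4, and P1, P7, P12 and P13 held 0. The other motifs stood at 0.59 per kb for the E-box (0.64 in all peaks), 0.20 for MEF2 (0.13) and 0.065 for CArG (0.040). In their central 300 bases, 11 of the 13 cluster peaks (all but P1 and P12) were poorer in G and C than the median of all peaks, with a median of 49.3% against 56%, and the part of base composition in these densities was not tested. The 300 bases of P5 shown here hold the most matches of any such stretch in it, a TEAD core on each strand.
P5 stretch, chr11:67138659-67138958: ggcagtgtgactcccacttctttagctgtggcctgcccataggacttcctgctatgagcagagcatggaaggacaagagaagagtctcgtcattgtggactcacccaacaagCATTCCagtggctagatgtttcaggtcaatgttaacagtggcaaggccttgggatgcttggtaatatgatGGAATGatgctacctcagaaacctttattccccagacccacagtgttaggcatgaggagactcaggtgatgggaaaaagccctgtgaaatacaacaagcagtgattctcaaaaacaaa

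The remaining peaks did not pass the test between groups either. P8 lies inside Myh1, over exons and 3486 bp from its 5′ end, and held 79.4 ± 9.62 CPM with LacZ-shRNA and 76.5 ± 2.97 with Yap-shRNA (mean ± SD, n = 3 libraries each). P9 (67226044 to 67228251) lies between Myh1 and Myh4 in an intron of Myhas, 491 bp from an annotated start of that RNA. It held 50.4, 86.6 and 73.5 CPM with LacZ-shRNA and 56.9, 60.6 and 67.5 CPM with Yap-shRNA, and the Yap-shRNA values fell inside the LacZ-shRNA range (log2 fold change -0.18, SE 0.14, edgeR adjusted p 0.804). P13, in an intron of Myh8, was the faintest peak of the interval, with 7 to 15 counts per library. P1, at Sco1 and Adprm, had a difference of -0.17 on the log2 scale (SE 0.14, edgeR adjusted p 0.833).

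**Figure D3:**
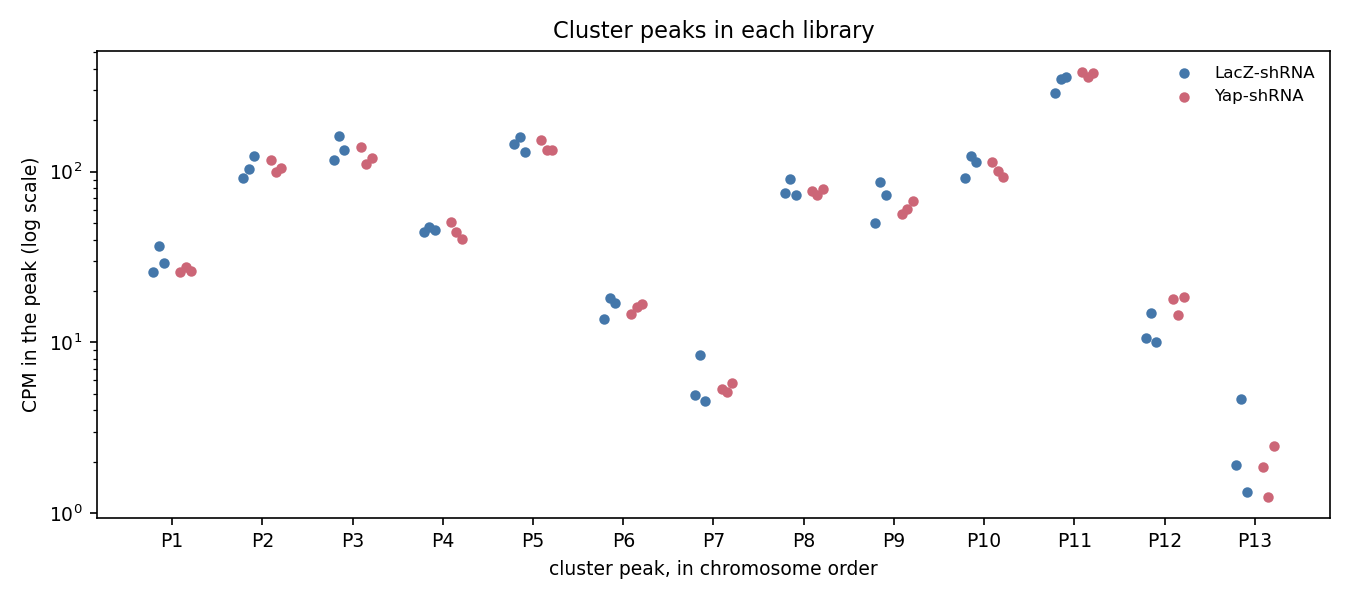
CPM of each cluster peak (log scale) in the 3 LacZ-shRNA (blue) and 3 Yap-shRNA (red) libraries, in chromosome order. Levels run from 1.25 CPM at P13 to 384 at P11, and the groups overlap at all peaks other than P11, where 358.84 and 358.95 CPM meet.

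For the windows as a group, 0 of the 9 members passed an adjusted p of 0.05 with edgeR, against 0.0223% of all windows. DESeq2 also called 0, but gave no adjusted p for Myh1, Myh2 and Myh3, so it could not call these. With edgeR, an unadjusted p under 0.05 was seen for 1 of 9 (Myh8), against 4.9% of all windows. The log2 fold change was above 0 in 7 of 9, against 47.3% of all windows, and its median was 0.073 against -0.014. The 95% intervals of single genes reached as low as -0.49 (Myh1) and as high as 0.67 (Myh8).

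Among the peaks, 0 of the 13 passed the threshold in edgeR, against 0.618% of all peaks. DESeq2 called 0, but gave no adjusted p for P7 and P13. P12 was the 1 of 13 with an unadjusted p under 0.05, against 8.9% of all peaks. The log2 fold change was above 0 in 3 of 13 (P2, P11 and P12), against 49.5% of all peaks, with a median of -0.040 against -0.0026. With library size alone, the median of all peaks moved to 0.14, and P3 to P8 and P10 lay above 0 (0.0051 to 0.12) but below that median, as they did with TMM.

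**Figure D4:**
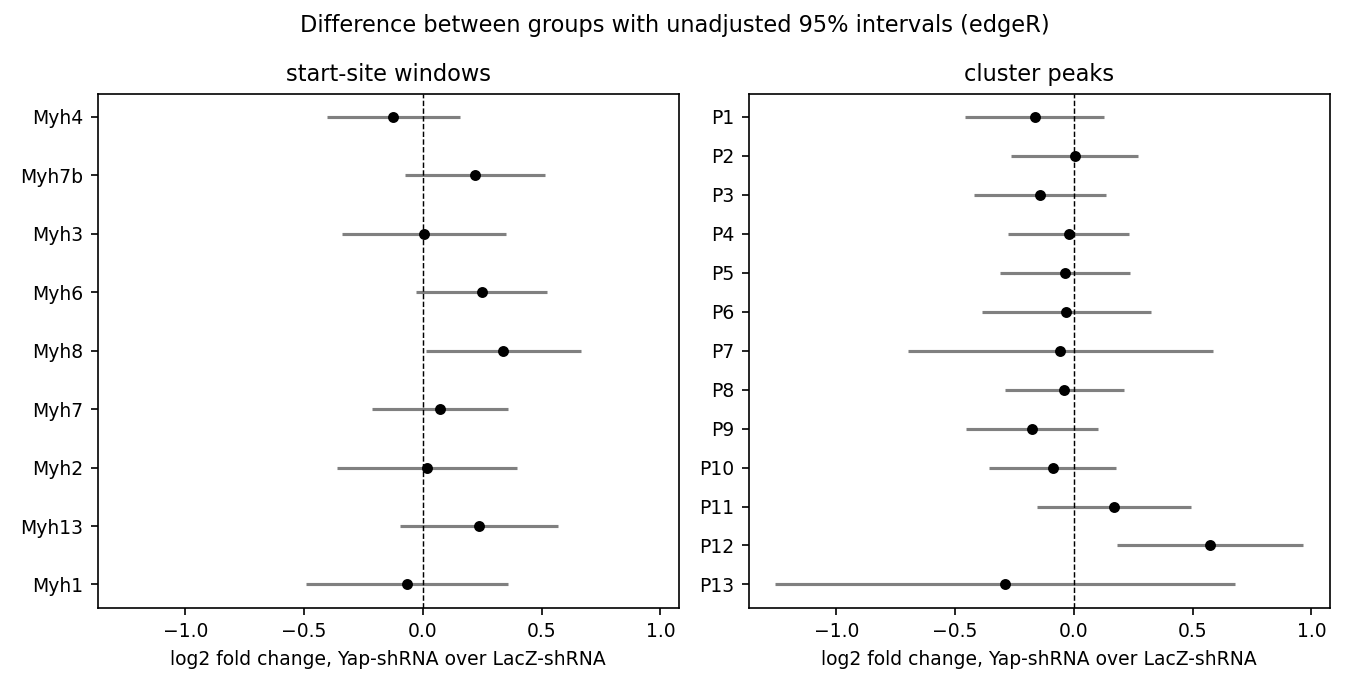
Log2 fold change of Yap-shRNA over LacZ-shRNA (points) with unadjusted 95% intervals (lines) from edgeR for the 9 member windows (left, ordered by level per kb) and the 13 cluster peaks (right, in chromosome order). The intervals of Myh8 and P12 leave out 0 before adjustment, and the other 20 include it.

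Within a library, the count of the Myh4 window over that of the Myh2 window does not depend on the scaling between libraries. The log2 ratio was 1.84, 3.05 and 2.52 with LacZ-shRNA and 2.17, 2.25 and 2.40 with Yap-shRNA. All Yap-shRNA values lay inside the LacZ-shRNA range, and the means of 2.47 ± 0.61 and 2.27 ± 0.12 (mean ± SD, n = 3 libraries each) differed by -0.20 (two-sided exact permutation p 0.7, where 0.1 is the smallest this design allows). The Myh2 counts of LacZ-shRNA replicates 1 and 2 were 76 and 26, so the ratio is least precise there. At 5.28 CPM per kb the Myh2 window lay within the range of windows that overlap no peak (95th percentile 7.91). The Myh4 window largely leaves out the peak at its start, so the ratio does not compare the promoters of these genes. How far the ratio follows the background of each library was not tested.

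The cluster's share of all peak counts was 0.0917, 0.110 and 0.110% with LacZ-shRNA and 0.122, 0.113 and 0.112% with Yap-shRNA. LacZ-shRNA replicate 1 was lowest, and all Yap-shRNA libraries lay above all LacZ-shRNA libraries, by as little as 0.112 against 0.110. The means were 0.104 ± 0.010 and 0.116 ± 0.0060% (mean ± SD, n = 3 libraries each; exact permutation p 0.1, two-sided, the smallest this design allows). The 95% Wilson intervals, which cover counting error only, were 0.108 to 0.113% for LacZ-shRNA replicate 3 and 0.109 to 0.114% for Yap-shRNA replicate 3, and these overlap. The 361 peaks with the highest mean count (1% of all) held 21.1% of peak counts, and 2 of them, P5 and P11, held 45.7% of the cluster's counts. With these 361 taken out of the total alone, which is then no longer a total that holds the whole cluster, the difference fell from 0.012 to 0.0023 percentage points (exact permutation p 0.9). With P5 and P11 also taken out of the cluster, a setting added after seeing the data, it was -0.0032 (exact permutation p 0.7).

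Genes that work with myosin gave 0 calls as well. Of 12 fast sarcomere genes, which include the fast troponins and Atp2a1, the fast calcium pump, 11 had a log2 fold change below 0 with a median of -0.15 (that of all windows is -0.014), and of 11 slow sarcomere genes 7 were above 0 with a median of 0.036. Both lists had 0 windows with an unadjusted p under 0.05 in edgeR and 0 called by DESeq2. Without LacZ-shRNA replicate 1 Atp2a1 (log2 fold change -0.38) and Mybpc2 (-0.42), a fast myosin binding protein, passed the threshold (edgeR adjusted p 0.0429 and 0.0191), in a fit that called 157 windows in all. Of 23 regulators of fibre type, 16 were below 0 with a median of -0.095, and 0 passed the threshold in edgeR or DESeq2. Beside these list counts, 26007 of all 49366 windows were below 0 and 47.3% above.

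Myosin genes outside striated muscle were measured for comparison. Myh9, Myh10 and Myh14, the nonmuscle forms, and Myh11, the smooth muscle form, had log2 fold changes between -0.075 and 0.055. Myh15, another striated form, had -0.23 (SE 0.24, edgeR adjusted p 0.956). Among 5971 windows compared, those of Ppp2r2a, Hook2 and Eif4b followed Myh4 most closely over the 6 libraries, with root-mean-square differences of centred log2 CPM of 0.018, 0.021 and 0.027. They were picked from many windows by this likeness, and it is a description.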

How the data were processed

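ATAC-seq had been run on PCM1-positive nuclei (3 LacZ-shRNA and 3 Yap-shRNA replicates). Per the labels and the study's methods, the authors mapped paired-end reads to GRCm38 with BWA 0.7.17, removed duplicates with SAMtools 1.8, called peaks in each sample with MACS 1.4.2-1, kept peaks found in at least 2 samples and counted reads with featureCounts 1.5.0 against Ensembl annotation. The deposited values are whole-number counts per peak and per start-site window, not normalised, and rows with a mean under 10 had been removed (the lowest row mean was 10 in each table). A mapping quality limit is stated only for whole-gene counts. Transposase offset and fragment length cannot be examined in counts.

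All 49366 window identifiers and symbols matched GENCODE vM21. Both tables were fitted whole with edgeR 4.0.16 in R 4.3.3 (quasi-likelihood test, TMM factors, no covariate, Benjamini-Hochberg adjustment over all rows, threshold 0.05), after the script had been tested on simulated data. CPM are TMM-scaled. Exact permutation tests were two-sided and run with scipy 1.17.1. With the replicate block, signs of differences within same-numbered pairs were flipped instead. Alternatives were DESeq2 1.42.0, library size alone, DESeq2 size factors in edgeR, a mean count of at least 50, a replicate block, leaving out each library the cluster share without the 1% of peaks with the highest mean count in the total and, chosen after seeing the data, the same with them also out of the cluster and the level per kb of unshared window.

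All 9 genes are named. Cluster peaks are named if they lie within 1 kb of a myosin start, are among the 5 highest per kb or have 1 of the 5 smallest p-values, and P5 to P8 and P13 were described in addition after their values were seen. List genes are named if called or with an unadjusted p under 0.05. A result that meets this rule is not reported here. The members and lists were chosen with earlier results of these data known. The p-values measure the spread between libraries, which pool muscles. No libraries looked duplicated (chi-square per row at least 1.95 between any replicates of a group). Sequences came from RefSeq and the GRCm38.p6 genome.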

Additional observations from a re-analysis of the deposited data

How the results depend on the processing

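Under every alternative run, 0 of the 9 member windows and 0 of the 13 cluster peaks passed the threshold, with 0.0665 the smallest edgeR adjusted p (P12, library size alone). P7 and P13 had a mean count under 50 and were not in the fit with that filter. Of 240 values of single windows and peaks under the alternatives, 212 kept their direction and 28 reversed. With library size alone, P3 reversed to 0.0051, P4 to 0.12, P5 to 0.11, P6 to 0.11, P7 to 0.086, P8 to 0.10 and P10 to 0.056 on the log2 scale. In that fit the median of all peaks moved from -0.0026 to 0.14. Myh3 reversed to -0.0041 with a mean count of at least 50 and to -0.0034 with DESeq2, and P2 to -8.3e-05 with DESeq2 size factors. The cause was not tested.

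When each library was left out in turn, log2 fold changes ran from -0.20 to 0.12 for Myh1, from -0.11 to 0.14 for Myh2, from -0.097 to 0.070 for Myh3 and from -0.018 to 0.19 for Myh7. Among peaks they ran from -0.097 to 0.14 for P2, from -0.11 to 0.032 for P4, from -0.12 to 0.034 for P5, from -0.13 to 0.026 for P6, from -0.25 to 0.20 for P7, from -0.10 to 0.051 for P8 and from -0.72 to 0.24 for P13. Without a change of sign, they ran from -0.25 to -0.052 for P1, from -0.24 to -0.022 for P3, from -0.36 (without LacZ-shRNA replicate 1, unadjusted p 0.00744) to -0.032 for P9, from -0.20 to -0.0092 for P10 and from 0.075 to 0.23 for P11. The difference in the log2 ratio of Myh4 to Myh2 ran from -0.51 to 0.092, with the sign turned without LacZ-shRNA replicate 2, and the share of the cluster from 0.0057 to 0.015 percentage points. With the 1% of peaks of highest mean count left out of the total that share difference was 0.0023, and with them left out of the cluster too, a setting added after seeing the data, it reversed to -0.0032.

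Whether the replicate numbers pair the samples could not be decided. Same-numbered libraries had correlations of deviations of 0.19, -0.13 and 0.095 in windows and 0.012, -0.10 and -0.15 in peaks. Those of different-numbered libraries ran from -0.27 to 0.21 in windows and from -0.032 to 0.14 in peaks. With so few libraries these correlations cannot show or exclude pairing. With the replicate block, 0 member windows and 0 cluster peaks were called, no direction turned, and the smallest adjusted p was 0.378. The ratio then differed by -0.20 (exact sign-flip test within same-numbered pairs, p 0.75). The share differed by 0.012 (the same test, p 0.25, the smallest it allows). The ratio of Myh4 to Myh2 could not be taken from peaks, because no peak overlaps the Myh2 window. DESeq2 gave no adjusted p for Myh1, Myh2, Myh3, P7 and P13. With 3 libraries per group, and 2 shallow LacZ-shRNA libraries, SEs of 0.12 to 0.48 on the log2 scale limit what could be detected.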
